A study of Mus musculus with 23 samples.

Results

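Allografted mouse medulloblastomas that had become resistant to NVP-LDE225, an antagonist of Smoothened, were compared with sensitive tumours of the same kind taken 48 h into treatment, both at 40 mg/kg. The members were chosen by the sample labels: the 3 arrays of tumours labelled resistant at 40 mg/kg (numbered 1, 2 and 3) were set against the 3 arrays labelled 48 h at 40 mg/kg (numbered 1, 3 and 4), that is 6 of the 23 arrays in the series. All 45037 non-control probe sets of the array's 45101 were considered, and 35069 passed the filter on low signal. They stood for 14980 named genes, each represented by 1 probe set.

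The tumour cells carried the genotype Ptch+/-HIC+/-, that is, the Hedgehog receptor gene Ptch1 and the repressor gene Hic1 each had 1 disrupted copy. Dissociated tumour cells were placed under the skin of the flank of nu/nu mice, which lack a thymus and most T cells but keep other host cells, so host macrophages, vessels and connective tissue were measured together with the tumour. Every group compared here carried that same genotype and host. Vehicle tumours (3 arrays with no stated time) and vehicle tumours taken at 4 h (2 arrays) served as untreated tissue, and tumours resistant at 160 mg/kg (3 arrays) are given where a value bears on these libraries. The labels do not say whether arrays of 1 group were separate animals, nor give the resistant tumours' time on drug, and each p-value below therefore covers only the variation among the arrays at hand.

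As background, Hedgehog ligand, or loss of Ptch1, frees Smoothened, which in the primary cilium turns Gli transcription factors into activators. Gli activators raise Gli1 and Ptch1 themselves and, in the granule neuron progenitors of the cerebellum, Mycn and Ccnd1, and these cells keep dividing. When the signal ends, such progenitors leave the cell cycle and become granule neurons. A Smoothened antagonist acts at the receptor, upstream of the Gli factors.

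Signals were MAS5 intensities that had been scaled to a like trimmed mean on each array (149 to 150 units). Correlations between arrays over the tested probe sets were 0.950 to 0.961 (Pearson r) among resistant tumours and 0.961 to 0.969 among 48 h tumours, against 0.881 to 0.911 between the groups. The number of arrays limits the precision. The actin 3′ to 5′ signal ratio, a sign of RNA quality, was 1.46 (log2) on resistant array 1, 0.885 and 0.914 on resistant arrays 2 and 3, and 0.843 to 0.964 on the 48 h arrays. Differences below are log2 of (signal + 16), resistant over 48 h, from limma with Benjamini-Hochberg adjustment over all tested probe sets, and a gene is said to be called at an adjusted p under 0.05. The offset of 16 understates the differences of dim genes.

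Libraries stood apart at a few genes in a way that the drug labels do not follow. Ccdc138, a centriolar satellite protein gene, had signals of 2768, 2296 and 2414 in resistant tumours, 30.9, 30.2 and 23.2 in 48 h tumours, 2572, 2104.5 and 2664 in vehicle tumours, and 22.9 and 39.7 in 4 h vehicle tumours. The 48 h tumours thus sat with the 4 h vehicle tumours and the resistant tumours with the other vehicle tumours. Tumours resistant at 160 mg/kg fell on both sides, at 2754, 42.5 and 2508. Zfand6 ranged from 9925 to 11039 in resistant tumours, from 2548 to 2894 in 48 h tumours, from 9643 to 11647 in vehicle tumours and from 2263 to 2348 in 4 h vehicle tumours. Pus10, a pseudouridine synthase gene, showed the opposite order, with 258 to 284 in resistant tumours, 969 to 1027 in 48 h tumours, 237 to 279 in vehicle tumours and 1684 to 1748 in 4 h vehicle tumours. Zfand6 and Pus10 were singled out after their values were seen. Between the vehicle groups themselves 43 probe sets were called (0.123% of those tested; 2778 had an unadjusted p under 0.05), and 27 of these were also called between resistant and 48 h tumours, all in the same direction. The experiment or tumour stock an array belonged to and its treatment cannot be told apart for these genes. When resistant tumours were taken relative to the vehicle tumours and 48 h tumours relative to the 4 h vehicle tumours, 5577 probe sets were called in place of the 10504 given next, and 5236 of them were shared with the same sign. This comparison was chosen after seeing the data and is called below each side relative to its own vehicle group, although no label ties a vehicle group to a treated one and the assignment is assumed from genes such as Ccdc138. The comparison also brings in the error of both vehicle groups, so its standard errors are larger. A call can be lost under it although the difference itself hardly changed. Of the 35069 probe sets it called 2814 higher and 2763 lower. List counts relative to each side's own vehicle group stand beside these counts, not beside the larger shares given next.

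Resistant and 48 h tumours differed at 10504 probe sets (30.0% of those tested), 5111 of them higher (14.6%) and 5393 lower (15.4%) in resistant tumours. At the level of genes, 5542 differed (37.0%), of which 2659 were higher (17.8%) and 2883 lower (19.2%). List counts against 48 h tumours below stand beside these shares of all genes. Most of these genes were not called against vehicle. Of the 2659 higher genes, 2206 (83.0%) were not called against vehicle, 347 (13.1%) were lower than vehicle and 106 (4.0%) were higher. Of the 2883 lower genes, 2352 (81.6%) were not called against vehicle, 403 (14%) were higher than vehicle and 128 (4.4%) were lower. Resistant tumours differed from vehicle at 2495 probe sets (7.11%), or 1474 genes (9.84%), and 48 h tumours at 13414 probe sets (38.3%), or 6953 genes (46.4%), with the same vehicle arrays in both comparisons. The 2495 became 1294 in a fit of only the arrays compared, and 1468 to 2671 with an array left out. A gene not called against vehicle is not thereby shown to equal it. The median difference between resistant and 48 h tumours over all genes was -0.04.

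**Figure D1:**
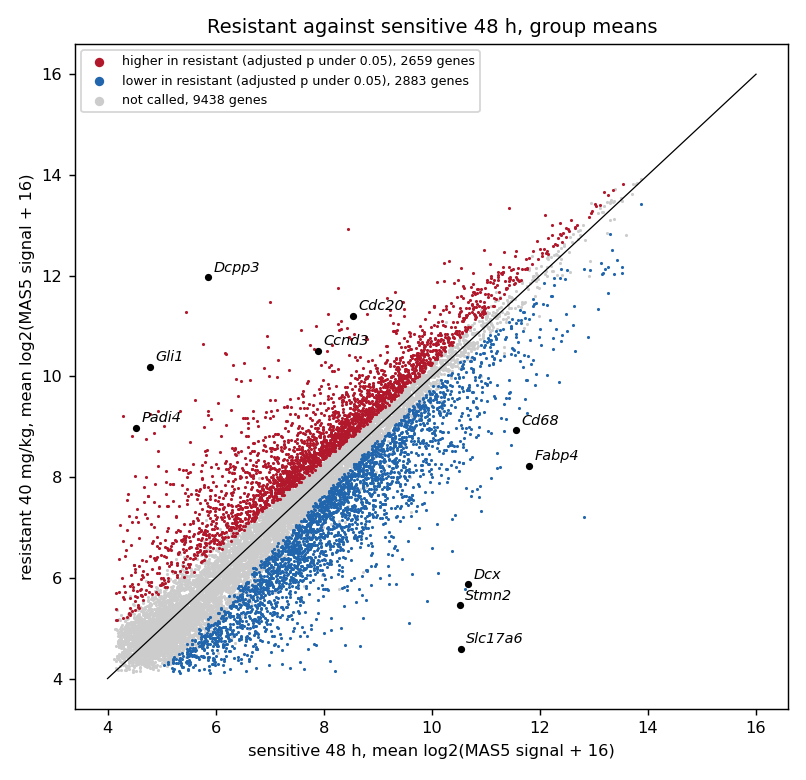
Mean log2(MAS5 signal + 16) of each gene in resistant tumours (vertical axis) against 48 h tumours (horizontal axis), with 1 point per gene and the diagonal marking equal signal; red and blue points are the 2659 genes called higher and the 2883 called lower in resistant tumours. Gli1 and Dcpp3 lie far above the diagonal, and Slc17a6, Stmn2 and Dcx far below it.

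Most Hedgehog target genes were higher in resistant tumours. Of 17 measured targets, 13 were called higher and 2 lower, with a median difference of 1.00, beside 17.8% of all genes higher and 19.2% lower. Gli1, a Gli factor that is itself a target, had signals of 1259, 1269 and 966 in resistant tumours, 4.2, 14.1 and 18.6 in 48 h tumours, and 631, 695.5 and 710.2 in vehicle tumours. No 48 h array came near either other group, and the log2 difference was 5.41 (SE 0.313, limma adjusted p = 6.1e-12). The 3 resistant values lay above all 3 vehicle values, but that difference of 0.76 was not called (adjusted p = 0.17).

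Ptch1, the receptor that restrains Smoothened, measured 2296, 2885 and 2079 in resistant tumours and 253, 302 and 217 in 48 h tumours, beside 2513 to 2831 in vehicle tumours (3.16, adjusted p = 8.9e-14). Gli2, the main Gli activator, measured 1195, 741 and 1189 in resistant tumours and 125, 100.0 and 108 in 48 h tumours (3.03, adjusted p = 6.6e-14). Cyclin D1 (Ccnd1), which drives entry into S phase, measured 4324.5, 2912 and 3289 in resistant tumours and 347, 280.0 and 255 in 48 h tumours, beside 3533 to 3971 in vehicle tumours (3.50, adjusted p = 5.6e-15). None of these 3 genes was called against vehicle, where resistant tumours differed by -0.18, -0.34 and -0.11 in the same order. Mycn, which drives progenitor growth, was 1.23 higher (adjusted p = 5.5e-08) and Atoh1, the progenitor transcription factor, 1.22 higher (adjusted p = 8.2e-09). Follistatin (Fst), an activin antagonist, measured 1301, 1249 and 1701 in resistant tumours, 42.9, 67.1 and 61.3 in 48 h tumours, 979, 823 and 874 in vehicle tumours, and 454 and 388 in 4 h vehicle tumours. Its log2 difference was 4.29 over 48 h tumours (adjusted p = 7.2e-14) and 0.65 over vehicle (adjusted p = 0.046).

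Some targets took another course than Gli1. Hhip, the ligand decoy, measured 20.6, 100.5 and 35.4 in resistant tumours, 1.9, 14.4 and 23.4 in 48 h tumours, and 184 to 238 in vehicle tumours. It was called higher than at 48 h (1.12, adjusted p = 0.016) although the groups overlapped, and lower than vehicle (-1.90, adjusted p = 0.0013). Its call against 48 h was lost without resistant array 2 (0.64) and without 48 h array 1 (0.80). Sfrp1, a secreted Wnt antagonist, measured 496, 266 and 181 in resistant tumours, against 991, 1169.7 and 1013 in 48 h tumours and 836 to 1013 in vehicle tumours. It was called lower than both, by -1.81 against 48 h (adjusted p = 1.4e-05) and -1.60 against vehicle (adjusted p = 0.00063). Cyclin D2 (Ccnd2) measured 322, 204 and 208 in resistant tumours, against 1034, 1002 and 982 in 48 h tumours and 73.8 to 159 in vehicle tumours (-2.0 against 48 h, adjusted p = 0.00015). Cdk6, the kinase partner of D cyclins, was not called against 48 h (0.15, adjusted p = 0.62) and was lower than vehicle (-1.38, adjusted p = 7.5e-05).

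**Figure D2:**
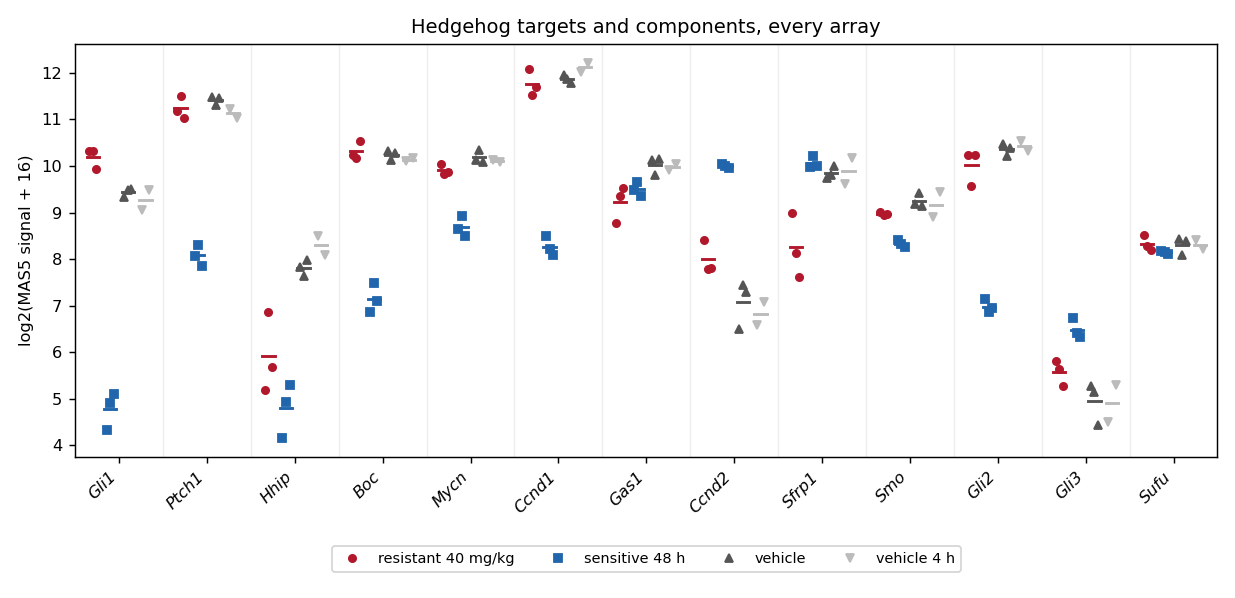
Log2(MAS5 signal + 16) of Hedgehog targets and components on every array of resistant, 48 h, vehicle and 4 h vehicle tumours, with short bars at group means. Gli1, Ptch1, Boc, Ccnd1 and Gli2 of resistant tumours lie above 48 h tumours, with Gli1 above the vehicle tumours too, while Hhip and Sfrp1 of resistant tumours lie below vehicle.

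Among 26 measured components of the pathway, 7 were higher and 5 lower, beside 17.8% and 19.2% of all genes, with a median difference of 0.08. When each side was taken relative to its own vehicle group, 3 were higher and 2 lower. Boc, a ligand co-receptor, measured 1189.8, 1144.5 and 1468 in resistant tumours and 101, 163 and 120 in 48 h tumours (3.17, adjusted p = 5.9e-15), beside 1101 to 1260.2 in vehicle tumours. The co-receptor Cdon was 0.77 higher, and the third, Gas1, was not called against 48 h (-0.28, adjusted p = 0.21) but was lower than vehicle (-0.81, adjusted p = 0.0028). Smo, the drug's target, measured 501, 478 and 487 in resistant tumours and 323, 305 and 292 in 48 h tumours, beside 551 to 666 in vehicle tumours (0.65, adjusted p = 0.00016). That Smo probe set can, by its design suffix, also match other transcripts, and so can those of Prkaca, Ralb, Cdc20, Rrm2, Mcm5, Chek1, Hmgb2, Phgdh and Hes6 below, so these values are uncertain. Sufu, which holds Gli factors in the cytoplasm, measured 349.8, 297 and 276 in resistant tumours and 275, 270.1 and 259 in 48 h tumours and was not called (0.18, adjusted p = 0.36), with a 95% interval of -0.10 to 0.47. The Gli processing kinases Prkaca (-0.57), Prkacb (-0.73) and Gsk3b (-0.27) were lower, and Csnk1a1, another such kinase, was higher (0.72). Relative to each side's own vehicle group the calls of Cdon (0.44), Prkaca (-0.22) and Csnk1a1 (0.25) were lost, and Gsk3b became 0.02. The Gsk3b call was also lost without resistant array 3 (-0.19), 48 h array 1 (-0.267) or 48 h array 4 (-0.235). Gli3, the main Gli repressor, was dim, at 40.2, 33.9 and 23 in resistant tumours and 89.8, 68.7 and 64.6 in 48 h tumours (-0.91, adjusted p = 0.041), and its call was lost when 1 of several arrays was left out (resistant array 3, -0.76).

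Gene copies were not measured, but the genes beside Gli2 and Ccnd1 in the genome can be read on the same arrays. Of 13 measured members of the Gli2 neighbourhood, Gli2 included, 3 were higher and 3 lower than at 48 h, beside 17.8% and 19.2% of all genes. Relative to each side's own vehicle group 4 were higher and none lower. Apart from Gli2 the ones called higher in the main fit were Tfcp2l1 (1.42) and Nifk (0.47), and the lower ones were Clasp1, Ccdc93 and Ralb (-0.40 to -0.84). Tfcp2l1 (0.69), Clasp1 (-0.13), Ccdc93 (-0.49) and Ralb (-0.70) lost their calls relative to each side's own vehicle group. The Nifk call was lost without resistant array 3 (0.36) and the Ccdc93 call without resistant array 2 (-0.47). Of 11 measured members around Ccnd1, only Ccnd1 was higher and only Cpt1a was lower (-1.43). Against vehicle, none of these 11 was called, and 1 of the 13 members of the Gli2 neighbourhood was called higher. Of all genes 5.39% were higher and 4.45% lower than vehicle, so counts this small show nothing particular to these members.

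Every measured gene of the mitosis and replication lists was higher in resistant than in 48 h tumours, and many were lower than in vehicle tumours. In bulk tumour RNA, fewer cells of a type and less RNA per cell cannot be told apart. All 48 measured genes of mitosis and the kinetochore were called higher (median 1.94), and all 39 measured genes of DNA replication (median 1.5), beside the 17.8% of all genes. Against vehicle, 40 of the 48 and 18 of the 39 were called lower (medians -0.76 and -0.56), beside 4.45% of all genes, and none higher. Cdc20, an activator of the anaphase-promoting complex, measured 1944, 2395 and 2775 in resistant tumours, 414, 301.5 and 362 in 48 h tumours, and 3309 to 3749 in vehicle tumours (2.67 over 48 h, adjusted p = 4.1e-12). Top2a, the mitotic topoisomerase, measured 1629, 1999.5 and 2349.6 in resistant tumours, 381, 254 and 368 in 48 h tumours, and 3509 to 4042 in vehicle tumours (2.52, adjusted p = 1.6e-10). Mki67, the proliferation antigen, measured 2455, 2858 and 3900.2 in resistant tumours, 664, 413 and 640.5 in 48 h tumours, and 4735 to 4859.9 in vehicle tumours (2.39, adjusted p = 1.6e-10). Each of these 3 genes had its resistant values between the 48 h and the vehicle values, with no overlap. Of the 48 mitosis genes, 46 were highest on resistant array 3 among the 3 resistant arrays.

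Of the replication genes, Uhrf1, which maintains DNA methylation at the fork, measured 878, 615 and 834 in resistant tumours and 81.1, 55.4 and 74.0 in 48 h tumours (3.20, adjusted p = 2.5e-13). Rrm2, a ribonucleotide reductase subunit, was 3.15 higher and the helicase subunits Mcm2 and Mcm5 were 2.60 and 2.47 higher. Mcm5 measured 1565, 1325 and 1825 in resistant tumours, 291, 226 and 292 in 48 h tumours, and 2015 to 2298 in vehicle tumours. Of 20 DNA repair and checkpoint genes 19 were higher (median 1.16), including the exonuclease gene Exo1 (2.31) and the checkpoint kinase gene Chek1 (1.96). Of 20 chromatin and DNA methylation genes 13 were higher and 2 lower, with Hmgb2 (2.62), a chromatin protein of dividing cells, and the helicase gene Hells (2.22) the farthest up.

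Motifs known from cell cycle promoters were counted in front of these genes. RefSeq promoter windows on GRCm38.p6, from 250 bases before to 50 after a start site, were matched for 40 of the 48 mitosis genes (45 windows) and 32 of the 39 replication genes (37 windows). The letters TTTGAA, the core of the cell cycle homology element, stood on either strand in 33 mitosis windows (73.3%) and 4 replication windows (10.8%), against 17.9% of all 32851 windows. The CCAAT box stood in 73.3% of mitosis and 59.5% of replication windows, against 37.4% of all. The E2F letters GGCGGGA stood in 28.9% and 32.4% of them, against 11.3% of all. None of these 3 motifs contains another. The letters CCACCCA, a core of Gli sites, stood in 1 of the 11 windows (9.09%) matched for 8 of the 13 higher Hedgehog targets and in 14 of 82 windows (17.1%) of the lower neuronal genes, against 9.3% of all. The neuronal E-box CAGATG also stood in 14 of those 82 windows, against 17.2% of all, and TTTGAA in 3 of the 11 Hedgehog target windows (27.3%). A match is a description and not a site. The promoters below are shown for the genes whose signals are given above. Capitals mark TTTGAA or its complement in Cdc20 (chr4:118437294-118437593, minus strand), Top2a (chr11:99024140-99024439, minus strand) and Mki67 (chr7:135716330-135716629, minus strand), and GGCGGGA in Mcm5 (chr8:75109259-75109558, plus strand).
Cdc20: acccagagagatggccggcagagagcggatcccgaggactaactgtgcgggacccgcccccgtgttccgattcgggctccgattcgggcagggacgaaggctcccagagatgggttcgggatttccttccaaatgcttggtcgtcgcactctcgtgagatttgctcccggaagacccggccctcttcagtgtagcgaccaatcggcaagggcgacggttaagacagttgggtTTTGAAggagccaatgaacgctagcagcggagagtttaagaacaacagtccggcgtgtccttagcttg
Top2a: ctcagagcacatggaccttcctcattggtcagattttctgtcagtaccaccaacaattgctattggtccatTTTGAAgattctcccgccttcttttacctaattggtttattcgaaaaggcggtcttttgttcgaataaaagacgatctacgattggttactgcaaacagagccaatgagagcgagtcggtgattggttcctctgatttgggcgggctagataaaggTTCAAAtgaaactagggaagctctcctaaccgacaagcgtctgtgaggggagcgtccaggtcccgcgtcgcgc
Mki67: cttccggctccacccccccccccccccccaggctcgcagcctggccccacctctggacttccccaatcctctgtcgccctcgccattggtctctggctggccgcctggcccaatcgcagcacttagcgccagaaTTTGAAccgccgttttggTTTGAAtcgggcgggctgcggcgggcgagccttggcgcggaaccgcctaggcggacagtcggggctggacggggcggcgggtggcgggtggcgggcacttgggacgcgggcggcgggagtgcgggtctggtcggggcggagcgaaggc
Mcm5: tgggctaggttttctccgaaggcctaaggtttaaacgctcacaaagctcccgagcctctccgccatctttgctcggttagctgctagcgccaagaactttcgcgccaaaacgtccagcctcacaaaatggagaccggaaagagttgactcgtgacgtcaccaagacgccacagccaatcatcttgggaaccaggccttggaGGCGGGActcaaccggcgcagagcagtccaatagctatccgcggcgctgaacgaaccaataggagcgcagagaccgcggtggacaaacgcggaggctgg
The element began 18 bases before the start site in Cdc20, 179 and 23 bases before it in Top2a, and 116 and 98 bases before it in Mki67, and the E2F letters of Mcm5 began 49 bases before it.

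Of 29 measured cell cycle regulators, 16 were higher and 3 lower. Beside Ccnd1, cyclin D3 (Ccnd3) measured 1158, 1250.1 and 2087 in resistant tumours, 236, 227 and 205 in 48 h tumours, and 372, 424 and 432 in vehicle tumours. The resistant values exceeded every other value, by 2.62 over 48 h (adjusted p = 4.7e-11) and by 1.78 over vehicle (adjusted p = 1e-06). In tumours resistant at 160 mg/kg Ccnd3 measured 238 to 292. The D cyclins thus took 3 courses in resistant tumours, with Ccnd1 near vehicle, Ccnd2 called below 48 h and Ccnd3 called above vehicle. Among the Myc family and its partners, 4 of 11 were higher and 2 lower, beside 17.8% and 19.2% of all genes. Mxd3 (2.76) and Mycl (1.98) differed more than Mycn (1.23) and Myc (0.41), and the antagonists Mxi1 (-0.51) and Mxd4 (-0.31) were lower. The call of Myc was lost without resistant array 2 (0.38), 48 h array 1 (0.39) or 48 h array 4 (0.29), that of Mxd4 in 4 of the 6 fits that left out an array (-0.22 to -0.29), and that of Mxi1 relative to each side's own vehicle group (-0.23).

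**Figure D3:**
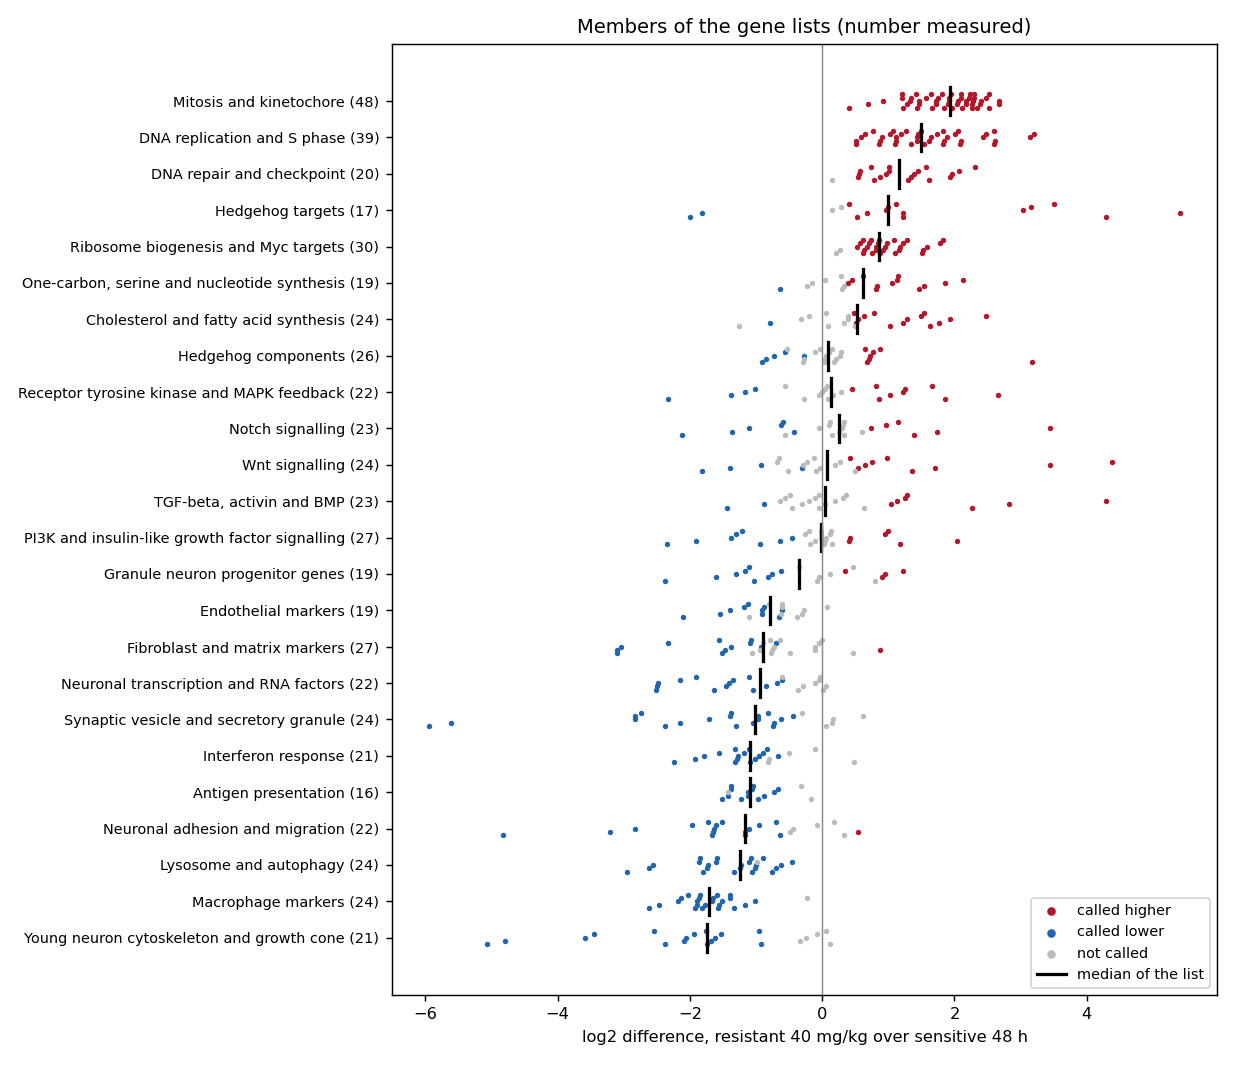
Log2 difference of each measured member of 24 gene lists, resistant over 48 h tumours, with red points called higher, blue points called lower, grey points not called and a black bar at each list's median. Mitosis, replication and repair genes lie to the right of 0 and young neuron, macrophage and lysosome genes to the left.

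Genes of the differentiating neuron were lower in resistant tumours than at 48 h. The counts below stand beside 19.2% of all genes lower and 17.8% higher. Of 21 measured genes of the young neuron's cytoskeleton and growth cone, 16 were lower and none higher (median -1.74), and of 24 synaptic vesicle and secretory granule genes 19 were lower and none higher (median -1.01). Of 22 neuronal transcription and RNA factors 14 were lower and none higher (median -0.95), and of 22 adhesion and migration genes 16 were lower and 1 higher (median -1.17). Taken relative to each side's own vehicle group, 5 of the 22 factors and 11 of the 24 synaptic genes were called lower. That comparison called 2763 of all 35069 probe sets lower. Slc17a6, the glutamate transporter that loads vesicles, measured 15.7, 2.3 and 8.4 in resistant tumours, 1549, 1416 and 1434 in 48 h tumours, and 5.2 to 8.2 in vehicle tumours (-5.94, adjusted p = 1.6e-13). Its resistant signals were as dim as those of vehicle tumours. Stmn2, a microtubule regulator of growing axons, measured 42.0, 23.1 and 21.2 in resistant tumours and 1441, 1439.6 and 1468 in 48 h tumours (-5.06, adjusted p = 2.9e-11). Chgb, a granule protein, measured 535, 99.4 and 35.8 in resistant tumours and 7149.8, 7391 and 7166 in 48 h tumours (-5.61, adjusted p = 2.5e-07).

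The resistant arrays differed among themselves in these genes. Dcx, a microtubule protein of migrating neurons, measured 155, 52.4 and 1.2 on resistant arrays 1, 2 and 3, against 1625, 1597 and 1606 in 48 h tumours and 25.6 to 44.1 in vehicle tumours (-4.79, adjusted p = 4.5e-08). Gap43, a growth cone protein, measured 332.5, 128.5 and 67.6 in resistant tumours and 1967.5, 1942 and 1838 in 48 h tumours (-3.58, adjusted p = 9.6e-09). Of the 21 cytoskeleton and growth cone genes 19 were highest on resistant array 1 among the 3, as were 17 of the 24 synaptic genes. That array also had the highest actin 3′ to 5′ ratio, whose part in this was not tested. Every resistant array lay below every 48 h array for Dcx, Gap43, Stmn2, Chgb and Slc17a6. These genes were named from those without overlap between the groups, so that outcome was fixed by their choice.

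Neurod1, a factor of granule neuron differentiation, stood between the other groups. It measured 2393, 776 and 1591 in resistant tumours, 6215, 6616 and 6475 in 48 h tumours, and 336, 293 and 284 in vehicle tumours. Resistant tumours were thus lower than 48 h tumours (-2.15, adjusted p = 2.7e-06) and higher than vehicle tumours (2.18, adjusted p = 4.1e-05). Of 17 transmitter receptors and channels, 7 were lower and 2 higher, beside 19.2% and 17.8% of all genes. The nicotinic receptor subunits Chrnb4 (-3.33) and Chrna3 (-3.18) were lower, and the pentraxin Nptx1 was higher, at 3095, 2923 and 2499.9 in resistant tumours and 154.5, 108 and 84.0 in 48 h tumours (4.47, adjusted p = 6.6e-16). Hpca, a neuronal calcium sensor, was also higher, at 8005.5, 8401 and 7058 in resistant tumours and 414.5, 314 and 289 in 48 h tumours (4.48, adjusted p = 1.1e-16).

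Of 19 measured genes of the granule neuron progenitor, 4 were higher and 9 lower than at 48 h (median -0.35), beside 17.8% and 19.2% of all genes. Beside Atoh1, the higher ones were the chemokine receptor gene Cxcr4 (0.95), Pax6 (0.91) and Sox11 (0.35). The call of Pax6 was lost without resistant array 3 (0.62), and that of Sox11 in 4 of the 6 fits that left out an array (0.24 to 0.36). Both were lost relative to each side's own vehicle group (0.62 and 0.54). Barhl1, a homeobox factor of the granule lineage, measured 265, 155 and 55.0 in resistant tumours, 842, 680.5 and 785 in 48 h tumours, and 233 to 257 in vehicle tumours (-2.38, adjusted p = 9.4e-07). The factors Zic1 (-0.82), Nhlh1 (-1.17) and Nhlh2 (-1.10) were lower than at 48 h and not called against vehicle. Meis1, another homeobox factor, measured 546.5, 468 and 431 in resistant tumours and was lower than both 48 h tumours (-1.04, adjusted p = 4.3e-07) and vehicle tumours (-0.63, adjusted p = 0.0018).

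Growth and biosynthesis genes rose with the division genes. Of 30 measured ribosome biogenesis genes and Myc targets 28 were higher and none lower (median 0.86), with Nop58 (1.82) and Polr1b (1.78) the farthest up. Against vehicle 3 were called lower, beside 4.45% of all genes. Of 17 cytoplasmic ribosomal proteins 10 were higher, by 0.29 to 0.76, and relative to each side's own vehicle group 2 were. Of 19 genes of one-carbon, serine and nucleotide synthesis 12 were higher and 1 lower. Phgdh, the first enzyme of serine synthesis, measured 615, 485 and 945 in resistant tumours and 128, 190.4 and 104.5 in 48 h tumours (2.14, adjusted p = 1.3e-08), beside 1041.5 to 1249 in vehicle tumours. Mthfd2, a mitochondrial folate enzyme, was 1.85 higher.

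Of 24 cholesterol and fatty acid synthesis genes 14 were higher and 1 lower (median 0.53). Idi1, an isoprenoid enzyme, measured 443, 605 and 660.1 in resistant tumours, 73.7, 99.3 and 91.6 in 48 h tumours, and 829.6 to 1326 in vehicle tumours (2.48 over 48 h, adjusted p = 2.7e-08). The sterol regulators Srebf1 (1.94) and Insig1 (1.77) and the epoxidase gene Sqle (1.63) were also higher. Among 28 hypoxia and glycolysis genes 3 were higher and 7 lower, beside 17.8% and 19.2% of all genes. Relative to each side's own vehicle group 1 was higher and 1 lower. Hexokinase 2 (Hk2) measured 1082, 741 and 956 in resistant tumours and 217, 204 and 153 in 48 h tumours (2.18, adjusted p = 4e-08), while Hk1 was lower (-0.76). Of 24 unfolded protein and heat shock genes 10 were higher and none lower, by 0.33 to 1.61. Of 22 p53 and apoptosis genes 4 were higher and 5 lower, shares near the 17.8% and 19.2% of all genes, and relative to each side's own vehicle group 1 was lower. Of 26 respiratory chain genes 5 were higher and 1 lower, the higher share near the 17.8% of all genes. The higher count was 9 without resistant array 1, 3 without resistant array 2 and 1 relative to each side's own vehicle group.

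Of 27 genes of PI3K and insulin-like growth factor signalling 6 were higher and 8 lower, beside the 17.8% and 19.2% of all genes, and relative to each side's own vehicle group 3 were higher. Irs1, the insulin receptor substrate, measured 4351, 5137 and 5162 in resistant tumours, 1069.6, 1245 and 1229.7 in 48 h tumours, and 5192 to 5978 in vehicle tumours (2.03, adjusted p = 5.7e-13). The receptor gene Igf1r was 0.99 higher. The ligand gene Igf1, which macrophages also express, measured 339, 338 and 382 in resistant tumours, 1569, 1083 and 1500.2 in 48 h tumours, and 53.3 to 76.8 in vehicle tumours. It was lower than at 48 h (-1.91, adjusted p = 3.7e-05) and higher than vehicle (2.24, adjusted p = 8e-05).

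Of 22 receptor tyrosine kinase and MAPK feedback genes 9 were higher and 4 lower, beside 17.8% and 19.2% of all genes. The counts relative to each side's own vehicle group were 6 and 2. The higher ones included the ETS factors Etv4 (2.66) and Etv5 (1.86) and the phosphatase gene Dusp6, which reads out ERK activity in many tissues. Dusp6 measured 1748, 2165 and 2376 in resistant tumours, 658, 655 and 625 in 48 h tumours, and 1483 to 1642 in vehicle tumours (1.66 over 48 h, adjusted p = 4.9e-10; 0.42 over vehicle, adjusted p = 0.038). The receptor gene Egfr was lower than both, at 234, 213 and 122 in resistant tumours, 474, 538 and 488 in 48 h tumours, and 549.9 to 664 in vehicle tumours (-1.37 and -1.61, adjusted p = 2.1e-07 and 9e-07). Of 23 immediate early genes 3 were higher and 6 lower, beside 17.8% and 19.2% of all genes. The counts relative to each side's own vehicle group were 2 and 2.

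In the Notch list 6 of 23 genes were higher and 6 lower, beside 17.8% and 19.2% of all genes. The lower count was 3 without 48 h array 1 or 48 h array 4, and relative to each side's own vehicle group 3 were higher and 2 lower. Dll3, a Notch ligand that acts within the cell, was 3.44 higher, and Hes6 1.73 higher. The Id genes, inhibitors of basic helix-loop-helix factors, diverged: Id1 measured 528, 525 and 419 in resistant tumours and 231, 201 and 208 in 48 h tumours (1.14, adjusted p = 6.2e-06), while Id2 measured 552, 708 and 446 in resistant tumours and 2587, 2991.5 and 1989 in 48 h tumours (-2.12, adjusted p = 4.3e-10). Of 24 Wnt genes 9 were higher and 4 lower, beside 17.8% and 19.2% of all genes. The lower count was 1 without resistant array 3 or 48 h array 1, and 2 without 48 h array 4. Relative to each side's own vehicle group 5 were higher and 1 lower. The list was led by the antagonist Wif1 (4.37) and the ligand Wnt4 (3.45), and the frizzled receptor genes Fzd1 (1.71) and Fzd2 (1.35) were higher. Of 23 TGF-beta, activin and BMP genes 7 were higher and 2 lower, beside 17.8% and 19.2% of all genes. Relative to each side's own vehicle group 4 were higher. Of 22 primary cilium genes 5 were higher and none lower, near the 17.8% of all genes in the higher direction. Relative to each side's own vehicle group 2 were higher, as also without resistant array 1, 48 h array 1 or 48 h array 3, and 3 were without resistant array 3.

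Some genes lay beyond vehicle as well as beyond 48 h tumours in resistant tumours. Dcpp3, a secreted protein gene and the farthest rise of all, measured 3170, 6011 and 3326.5 in resistant tumours, 57.4, 26.6 and 46.3 in 48 h tumours, and 565 to 757 in vehicle tumours. It differed by 6.11 from 48 h (adjusted p = 1.3e-15) and by 2.64 from vehicle (adjusted p = 7.1e-08), although its probe set can match other transcripts too. Padi4, which turns arginine into citrulline in histones, measured 427, 1030.6 and 260.1 in resistant tumours, 19.3, 3.3 and 1.9 in 48 h tumours, and 43.0 to 56.5 in vehicle tumours (4.45 and 2.92, adjusted p = 1.1e-09 and 1.9e-05). Bmp7, a BMP ligand, measured 266, 256 and 166 in resistant tumours, 31.5, 26.1 and 3.7 in 48 h tumours, and 34.7 to 45.7 in vehicle tumours (2.82 and 2.13, adjusted p = 1.1e-06 and 0.0005). In tumours resistant at 160 mg/kg Padi4 measured 30.5 to 66.4 and Bmp7 19.9 to 47.4, within or close to the vehicle range. Dcpp3 measured 324.0 to 453.7 in those tumours, below the vehicle range.

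Further genes of that kind were picked after their values were seen. Inhba, the activin subunit gene whose product Fst binds, measured 125, 103.5 and 127 in resistant tumours, 27.5, 5.1 and 7.8 in 48 h tumours, and 4.2 to 37.7 in vehicle tumours (2.26 and 1.90, adjusted p = 0.00034 and 0.009). The ligand gene Wnt9a (2.73 over 48 h, 1.73 over vehicle), the matrix protein gene Ccn2 (1.96 and 2.02) and the phosphatase gene Dusp4 (1.22 and 0.89) were called above both groups. The calls of Inhba (1.72) and Ccn2 (0.82) over 48 h were lost relative to each side's own vehicle group. Below both lay Pou3f3, a neural POU factor and 1 of the 15 farthest falls, at 3.8, 5.4 and 4.1 in resistant tumours, 251, 259 and 273 in 48 h tumours, 65.7 to 92.8 in vehicle tumours, and 188 and 191 in 4 h vehicle tumours (-3.76 and -2.15, adjusted p = 1.2e-06 and 0.0053). Dcc, a netrin receptor gene, was also below both (-2.83 and -1.68), but its resistant values of 1135, 213 and 224 spread widely.

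**Figure D4:**
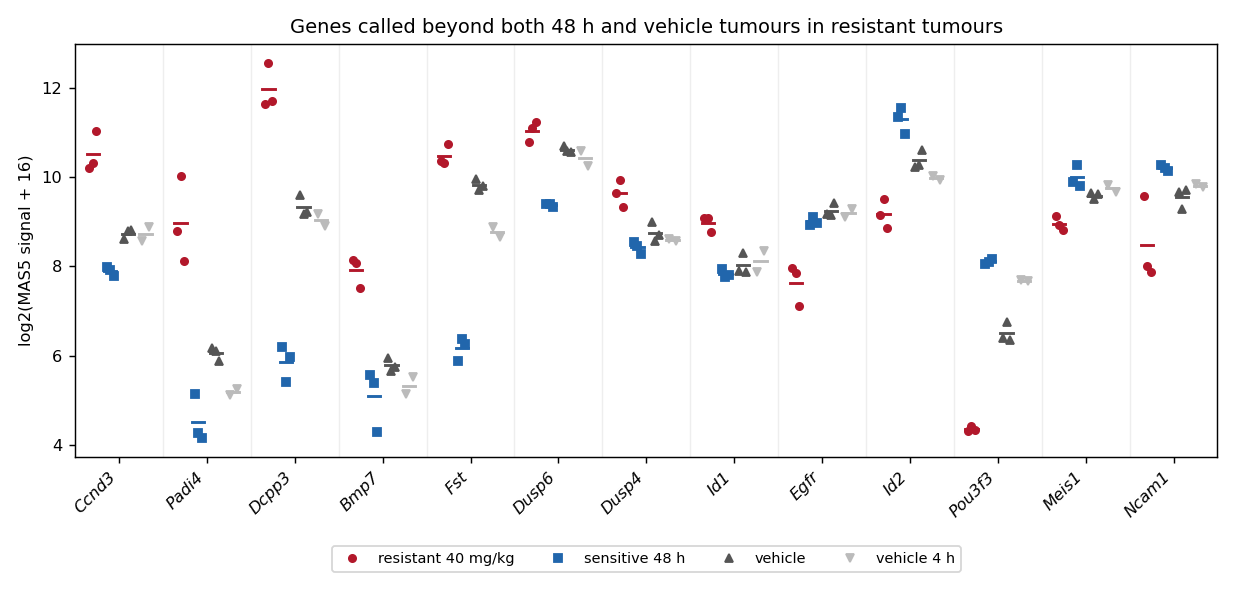
Log2(MAS5 signal + 16) on every array, with short bars at group means, of genes that were called in the same direction against both 48 h and vehicle tumours. Ccnd3, Padi4, Dcpp3 and Bmp7 of resistant tumours lie above all other groups, and Egfr, Id2 and Pou3f3 below them.

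Macrophage genes were lower in resistant tumours than at 48 h, and most stayed above vehicle. Of 24 measured macrophage markers 23 were lower than at 48 h and none higher (median -1.72), and 22 were higher than vehicle (median 1.82), beside 5.39% of all genes. The summed signal of the 24 ranged from 14902 to 19015 in resistant tumours, from 46626 to 64176 in 48 h tumours and from 2875 to 4893 in vehicle tumours. Cd68, a macrophage lysosomal protein, measured 473, 447.5 and 499 in resistant tumours, 3119.5, 2201 and 3895 in 48 h tumours, and 103 to 141 in vehicle tumours (-2.62 from 48 h, adjusted p = 3.2e-08; 1.77 over vehicle, adjusted p = 0.00013). Csf1r, the macrophage growth factor receptor, measured 2207, 1917 and 1082 in resistant tumours, 5817, 4465 and 5803 in 48 h tumours, and 282 to 601 in vehicle tumours (-1.67, adjusted p = 0.00086). The 3 groups did not overlap for either gene.

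Lysosome and lipid genes were also lower in resistant tumours than at 48 h. Among resistant arrays 1, 2 and 3 the lipid and iron list did not follow the macrophage markers. Its summed signal was 22874, 23337 and 26602, and the macrophage sum was 19015, 17305 and 14902. Of 24 lysosome and autophagy genes 23 were lower (median -1.24), and 16 were higher than vehicle, beside 5.39% of all genes. Of 19 lipid efflux and iron handling genes 14 were lower, among them the scavenger receptor gene Cd36 (-3.07), the lipid droplet gene Plin2 (-2.50) and the fatty acid carrier gene Fabp4 (-3.57). The Fabp4 call was lost relative to each side's own vehicle group (-2.53). Fabp4 is also an adipocyte marker, and 5 of 8 such markers were lower (median -1.54), 3 without resistant array 2 or 48 h array 3, and 2 relative to each side's own vehicle group. Of 21 interferon response genes 16 were lower and none higher (median -1.09), and 9 were when each side was taken relative to its own vehicle group. Of 16 antigen presentation genes 13 were lower, but 4 were without resistant array 3 and 6 relative to each side's own vehicle group. Cd74, the class II invariant chain, was named after its values were seen: it measured 873, 452 and 120.1 on resistant arrays 1, 2 and 3, against 1014.5, 995 and 1244.5 in 48 h tumours (-1.51, adjusted p = 0.013). Its call was lost without resistant array 3 (-0.76), in a fit of only the arrays compared, and relative to each side's own vehicle group (-1.44). The chemokine gene Cxcl12, whose receptor Cxcr4 was higher, measured 126, 62.5 and 70.5 in resistant tumours and 774, 397 and 788 in 48 h tumours (-2.70, adjusted p = 1.6e-06). How much the number of macrophages or adipocytes contributes to the lysosome, lipid and antigen lists was not tested.

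**Figure D5:**
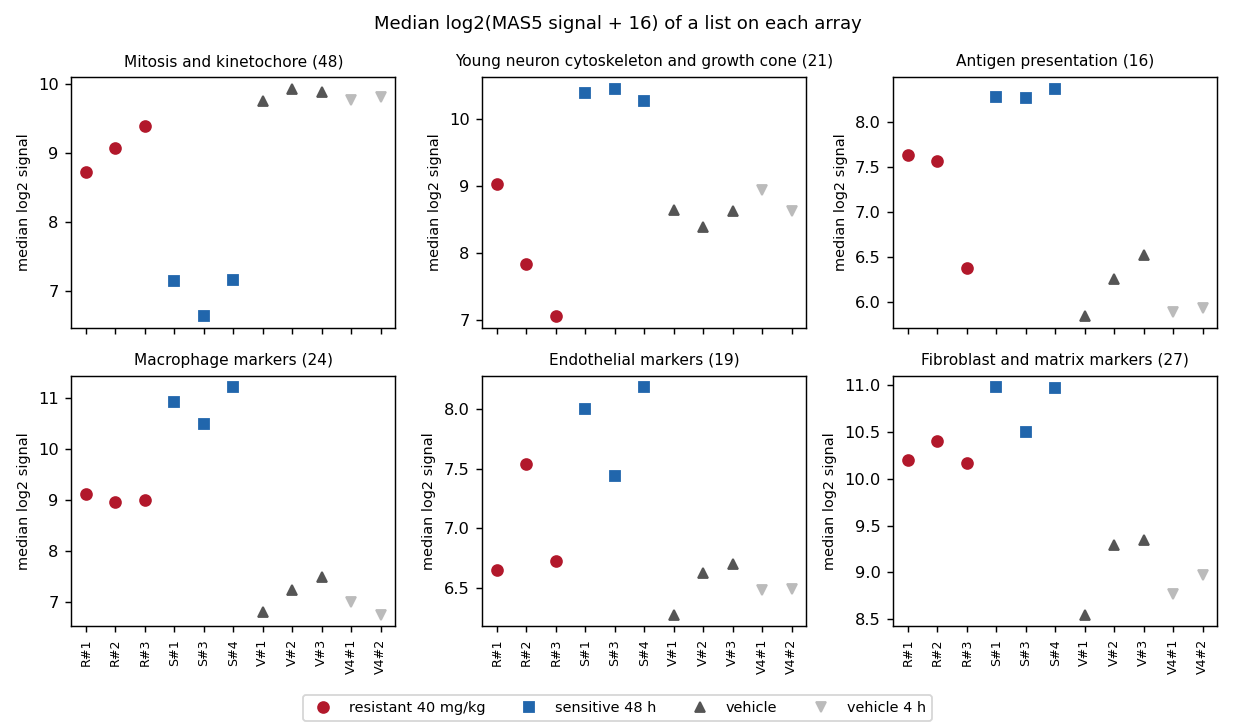
Median log2(MAS5 signal + 16) over the measured members of 6 gene lists on each array of resistant (R), 48 h (S), vehicle (V) and 4 h vehicle (V4) tumours. Macrophage medians are 8.96 to 9.13 in resistant tumours, between the 48 h and vehicle groups, and antigen presentation is lowest among resistant tumours on array 3 at 6.37.

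Of 27 fibroblast and matrix markers 12 were lower and 1 higher than at 48 h, and 16 were higher than vehicle. Relative to each side's own vehicle group 5 were lower and none higher. The collagen gene Col1a1 measured 1836, 2286 and 1735 in resistant tumours, 5787, 3751 and 5911 in 48 h tumours, and 323 to 748 in vehicle tumours (-1.37, adjusted p = 0.018). Its call was lost without resistant array 3 (-1.29), 48 h array 1 (-1.27) or 48 h array 4 (-1.26), and relative to each side's own vehicle group (-1.39). The proteoglycan genes Dcn (-3.11) and Lum (-3.10) were lower still, and neither was called against vehicle. Both lost their call relative to each side's own vehicle group (-2.45 and -2.40). Of 19 endothelial markers 10 were called lower (median -0.80), but 3 were without resistant array 1, 3 without 48 h array 4 and 3 relative to each side's own vehicle group. The endothelial marker Cdh5 was not called (-0.27, adjusted p = 0.64), and 17 of the 19 were highest on resistant array 2 among the resistant arrays. Of 22 skeletal muscle markers 8 were lower, but their summed signal was 7349, 922 and 1133 in resistant tumours and 9253, 20282 and 2899 in 48 h tumours, and the count moved with single arrays. Without 48 h array 4 it was 16 and without 48 h array 3 it was 4. Of 13 pericyte and smooth muscle markers 2 were lower (median -0.14), of 9 neutrophil markers 1, and of 8 skin markers none, against 19.2% of all genes. Against vehicle, 4 of the neutrophil, 3 of the pericyte, 1 of the endothelial, 1 of the skeletal muscle and 1 of the adipocyte markers were called higher. The share of all genes was 5.39%, near that of the endothelial and skeletal muscle markers. Called lower than vehicle were 1 endothelial, 1 skeletal muscle and 1 skin marker, beside 4.45% of all genes.

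Among lymphocyte and natural killer markers, 6 of 11 were lower and 1 higher. The granzyme gene Gzma measured 4.5, 22.0 and 14.1 in resistant tumours and 132, 144 and 351 in 48 h tumours (-2.84, adjusted p = 8e-06). The co-receptor gene Cd4, which mouse dendritic cells also express, was lower (-1.86), and Cd8a was dim throughout and higher (1.14, adjusted p = 0.013), with a probe set that can match other transcripts. None of the 11 was called against vehicle, beside 5.39% of all genes higher and 4.45% lower.

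Of 8 measured drug efflux pumps, 4 were lower and 1 higher in resistant tumours, beside 19.2% and 17.8% of all genes. Abcc3, which macrophages and tumours can both express, measured 144, 137 and 141 in resistant tumours, 571, 461.5 and 639.5 in 48 h tumours, and 36.6 to 59.9 in vehicle tumours (-1.86, adjusted p = 3.6e-05). Abcg2 was lower by a like amount (-1.61, adjusted p = 0.00049). The P-glycoprotein genes Abcb1a and Abcb1b were dim, at 13.5 to 43.8 and 12.6 to 16.6 in resistant tumours. Abcb1b was called lower (-0.74, adjusted p = 0.036), a call lost in 5 of the 6 fits that left out an array (-0.53 to -0.77) and relative to each side's own vehicle group (-0.47), and Abcb1a was not called (-0.63, adjusted p = 0.078). Abcc1, a broad exporter, measured 715, 553 and 816 in resistant tumours and 404.5, 367 and 458 in 48 h tumours (0.73, adjusted p = 3.1e-05), and was 0.41 above vehicle (adjusted p = 0.03).

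Of 15 astrocyte and radial glia markers 3 were higher and 3 lower, near the 17.8% and 19.2% of all genes. Sox2, a stem cell factor, measured 171, 103 and 217 in resistant tumours and 16.6, 30.1 and 26.1 in 48 h tumours (2.12, adjusted p = 5.2e-08), beside 252 to 255 in vehicle tumours. S100b, a calcium-binding protein of glia, measured 257, 711.5 and 121.5 in resistant tumours, 36.2, 40.0 and 36.7 in 48 h tumours, and 1020.4 to 1358 in vehicle tumours. It was higher than at 48 h (2.49, adjusted p = 2.5e-05) and lower than vehicle (-2.04, adjusted p = 0.0018).

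The resistant arrays were less alike than the 48 h arrays, with array 1 the farthest from the others. Resistant array 1 correlated at 0.951 and 0.950 with resistant arrays 2 and 3. Those correlated at 0.961 with each other, beside 0.961 to 0.969 among 48 h arrays. Resistant array 1 also had the highest actin 3′ to 5′ ratio of the 6 arrays (1.46), whose part in this was not tested. The gap between the highest and the lowest array of a gene had a median of 0.472 (log2) in resistant tumours and 0.357 in 48 h tumours, and it passed 1 at 2209 genes in resistant tumours and 1297 in 48 h tumours. The lists differed in which resistant array stood highest: array 3 for 46 of 48 mitosis and 32 of 39 replication genes, array 1 for 15 of 22 neuronal factors and 15 of 24 macrophage markers, and array 2 for 17 of 19 endothelial and 15 of 27 fibroblast markers. The median signal of the mitosis list was 8.72, 9.08 and 9.39 (log2) on resistant arrays 1, 2 and 3, and 7.15, 6.63 and 7.16 in 48 h tumours. The median of the young neuron list was 9.04, 7.84 and 7.05 on the same resistant arrays, and 10.28 to 10.46 in 48 h tumours. No resistant array passed into the 48 h range for either list.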

How the data were processed

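Tumour RNA was measured on 23 Affymetrix mouse arrays. The values are MAS5 signal intensities that the authors deposited as a series table, per the submitters' processing notes; the MAS5 version is not given in the sources used here, and scanner files were not used here. The number of probe sets is that of a larger array than the one the design text names. Probe sets were named through the platform annotation: 34958 had 1 gene symbol, 932 several and 9211 none. Signals were taken as log2(signal + 16). A probe set was tested if its signal exceeded the 40th percentile of the array in 2 or more of the 23. One model with a mean for each of 8 groups was fitted with limma 3.58.1 in R 4.3.3 (lmFit, eBayes with trend, two-sided), with Benjamini-Hochberg adjustment over 35069 probe sets and a threshold of 0.05. Each gene was represented by its probe set of highest mean signal. The fit was tested on simulated data. Members and gene lists were chosen with earlier results of these data known, so lists are described by counts and medians without a set test. Genes named are Hedgehog genes, the 15 farthest rises and falls among genes without overlap between groups, the 5 called members of smallest p in each list, members of some short lists and the 10 widest resistant ranges; others are said to be chosen after seeing values. Alternatives were the offset, the filter, quantile normalization, eBayes without trend, a fit of only the arrays compared, a replicate block and leaving out each array. Replicate numbers did not pair the samples.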

Additional observations from a re-analysis of the deposited data

How the results depend on the processing

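The 10504 probe sets called between resistant and 48 h tumours became 9726 and 10825 with offsets of 1 and 64, 10140 with no filter, 10028 with the 60th percentile as filter, 10592 after quantile normalization, 9968 without the trend, 8105 with only the arrays compared, and 8667 to 10174 when each array was left out in turn. All of these are within 1.5 times. With resistant tumours taken relative to the vehicle tumours and 48 h tumours to the 4 h vehicle tumours, an assumed pairing chosen after seeing the data, the count was 5577. The standard errors of that comparison are larger. Resistant over vehicle gave 2495 probe sets, 1294 with only the arrays compared, and 1468 to 2671 with an array left out, the lowest without vehicle array 1 (1468) and vehicle array 3 (1658). With the 4 h vehicle arrays in place of the vehicle arrays, also chosen after seeing the data, it gave 2638. The 48 h over vehicle count of 13414 ranged from 11665 to 12348 with an array left out. The replicate number as a block gave 8410, 2286 and 11403 for the 3 counts in the same order; the numbers do not pair the samples, since same-numbered arrays deviated together with correlations of 0.016 and 0.007. The cause of these shifts was not tested.

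Of 128 named genes, 31 lost their call in at least 1 setting and 6 changed sign. Relative to each side's own vehicle group, Zfand6 became -0.24, Pus10 0.82 and Gsk3b 0.02, the call of Ccdc138 ended at 0.11, and that of Neurod1 at -1.15. Cdh5, not called, ranged from -0.85 to 0.13 with an array left out, and Fgf7, not called, from -0.055 to 2.17. Gata1, not called, became 0.046 after quantile normalization and 0.21 with the block, and ranged from -0.23 to 0.22 with an array left out. The positive Cdh5 value came without resistant array 1 and the negative Fgf7 value without resistant array 2. Dim probe sets limit Gli3, Abcb1b and Cd8a, whose signals lie near the offset.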

Other observations

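A few genes were far higher on 1 resistant array than on the other resistant arrays. Vgll2, a cofactor of TEAD factors, measured 125, 54.4 and 4467 on resistant arrays 1, 2 and 3, and 30.4 to 124.1 in 48 h tumours. Dscam, a neuronal adhesion molecule, measured 123, 71.6 and 2125 on the same resistant arrays, 3.3 to 23.4 in 48 h tumours and 54.6 to 133 in vehicle tumours. All its resistant values exceeded the 48 h values, and it was called higher (3.28, limma adjusted p = 0.0013). That call was lost relative to each side's own vehicle group (2.6). Vgll2 and Dscam were both far up on resistant array 3. Acsbg1, a fatty acid activating enzyme, measured 2.5, 364 and 20.6 in resistant tumours and 2.0 to 4.1 in 48 h tumours, and the growth factor gene Fgf7 measured 28.5, 949.6 and 50.7 in resistant tumours and 33.8 to 44.9 in 48 h tumours. Both were far up on resistant array 2.

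Xist, the RNA that coats an inactive X chromosome, measured 861, 946 and 12.4 in resistant tumours, 2600.3, 1901 and 2630.4 in 48 h tumours, and 138.5 to 390.1 in vehicle tumours. Resistant array 3 was below every other array of these groups. Its macrophage sum was also the lowest of the resistant arrays, at 14902 beside 19015 and 17305 on arrays 1 and 2. Whether the Xist values followed host cell content was not tested.

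Of 3 measured red cell markers, 2 were higher, and Gata1, a factor of red cell precursors, was not called (-0.06, adjusted p = 0.91). Alas2, the heme enzyme of red cell precursors, measured 385, 163 and 159 in resistant tumours, 3.7, 8.4 and 36.8 in 48 h tumours, and 4.2 to 34.3 in vehicle tumours, and was called above both (2.98 and 2.91, limma adjusted p = 0.00012 and 0.0013). The red cell anion exchanger gene Slc4a1 was dim and called above both (1.02 and 1.27, limma adjusted p = 0.021 and 0.019), but its call over 48 h tumours was lost without resistant array 1 (0.72) or 48 h array 4 (0.97).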
